A study of Homo sapiens with 6 samples.

Results

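The 10 genes examined here are ones that published work on disseminated tumor cells ties to dormancy, read out in cultured breast cancer cells sorted for slow division: NR2F1, BHLHE40, BHLHE41, SOX9, RARB, TGFB2, MAPK14, GAS6, AXL and THBS1. They were taken by gene name from the deposited tables, in which each name occurs once, so the set holds 10 of 58735 genes. MDA-MB-231 is a triple-negative breast cancer line of mesenchymal character. Wild-type cells of this line were dyed with PKH26, a fluorescent membrane dye that is shared out at each division, and kept in serum-containing medium for 12 days. Slow-cycling cells (SCC, 3 libraries) were the top 1% by retained dye. Rapid-cycling cells (RCC, 3 libraries) had moderate dye by the protocol and low dye by the sample characteristics. The labels name a single line in culture and no niche cells.

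Dormant tumor cells are cells that stay alive after spreading but stop dividing, often for years. In published models NR2F1, an orphan nuclear receptor, acts with SOX9 and the retinoic acid receptor RARB to hold such cells in arrest. TGF-beta 2 from the surrounding tissue acts through the p38 kinase encoded by MAPK14 and raises the repressor BHLHE41, a close relative of BHLHE40. GAS6 binds the receptor tyrosine kinase AXL and is known for holding tumor cells quiescent in bone marrow, and thrombospondin-1 (THBS1) is known for doing so around stable blood vessels.

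One of the 10 genes, BHLHE40, was called higher in SCC, by 1.36-fold, and 0 were called lower. By edgeR's quasi-likelihood test with Benjamini-Hochberg adjustment over all genes, a call being an adjusted p under 0.05, that is 1 of the 9 genes that passed the filter on low counts. In the same test 2.07% of 15881 genes were called in either direction and 1.69% were called higher. RARB had too few reads to be tested. At an unadjusted p under 0.05, 4 of the 9 were higher (BHLHE40, GAS6, NR2F1 and BHLHE41) and 0 lower. Over all tested genes that threshold was passed by 11.4% higher, and by 1313 of 15881 lower. DESeq2 called 1 of the 9 higher and 0 lower, against 480 higher and 170 lower of all 15881 genes. In limma on log2(FPKM + 1), 8 dormancy genes were tested, with 1 called higher and 0 lower. Over all 12479 genes in that fit 130 were called higher and 36 lower. In the edgeR fit the log2 fold change of SCC over RCC was above 0 for 8 of the 9 genes, as it was for 50.5% of all tested genes. Its median was 0.13 against 0.0029 over all tested genes. Because cells were sequenced in bulk, more cells with a transcript and more transcript per cell cannot be told apart.

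The library of SCC replicate 1 stood apart in a way that touches most of these genes. It was the deepest, at 27831824 counts, against 17655855 to 22746267 in the other 5 libraries. Its values rose with the GC content of a gene. Its median log2 deviation from the mean of all libraries was -0.24 in the tenth of genes with the lowest GC content and 0.40 in the tenth with the highest. It was the highest of the 3 SCC libraries for 8 of the 9 tested dormancy genes, and the lowest for TGFB2, whose GC content of 38.9% is the lowest of the 10. Among all tested genes it was the highest for 42.0%. The log2 ratio of this library to the mean of SCC replicates 2 and 3 was not always that of genes with like GC content. It was 0.65 for BHLHE41, against a median of -0.0145 at 45 to 50% GC. For SOX9 (0.53) and AXL (0.34) the median was 0.10 at 50 to 55%. GAS6 (0.35) was near the 0.36 at 60 to 65%, and TGFB2 (-0.17) near the -0.22 at 35 to 40%. The 9 tested dormancy genes are therefore each given with and without this library, and with an offset for GC content in the fit, which was chosen after seeing the data. The part of GC content in the differences between SCC and RCC was not tested otherwise.

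**Figure D1:**
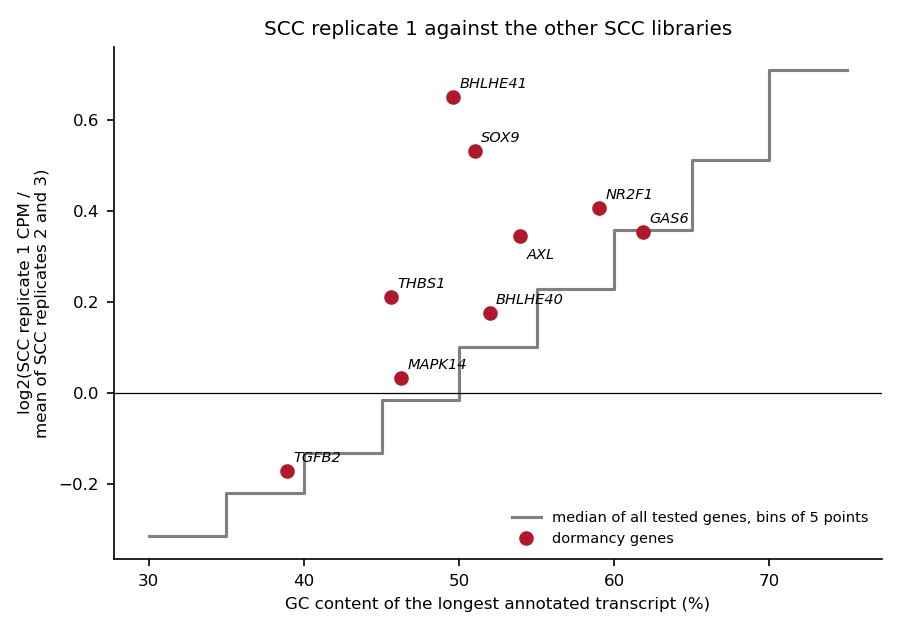
The horizontal axis is the GC content of the longest annotated transcript and the vertical axis the log2 ratio of CPM in SCC replicate 1 to the mean of SCC replicates 2 and 3. The grey line is the median of all tested genes in bins of 5 percentage points and the red points are the 9 tested dormancy genes, of which BHLHE41 (0.65) and SOX9 (0.53) lie farthest above 0 and TGFB2 (-0.17) lies below it.

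The levels of the 10 genes spanned more than 3 orders of magnitude. Deposited FPKM values, which divide by gene length and can be compared between genes, placed AXL first at 144 ± 14.0 (SD over 6 libraries), above 98.6% of tested genes. THBS1 came next at 53.7 ± 3.21 FPKM and then NR2F1 at 29.3 ± 4.74. MAPK14 (23.5 ± 0.58 FPKM), TGFB2 (22.7 ± 1.55), SOX9 (20.8 ± 3.17) and BHLHE40 (16.7 ± 2.86) followed, and each of these overlapped its neighbour in the order. GAS6 stood below them at 9.15 ± 1.52 FPKM. BHLHE41 was at 0.51 ± 0.18 FPKM, above 15.2% of tested genes, and RARB at 0.053 ± 0.018. The receptor AXL thus exceeded its ligand GAS6 on the FPKM scale by 14.6 ± 0.084-fold in SCC and 17.4 ± 2.09-fold in RCC (SD, n = 3; exact permutation p = 0.1 two-sided, the smallest that 3 against 3 libraries allow). The order was identical when counts were divided by gene length and TMM-scaled library totals. That unit differs from FPKM only in the library total, so it is no separate check of the order.

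**Figure D2:**
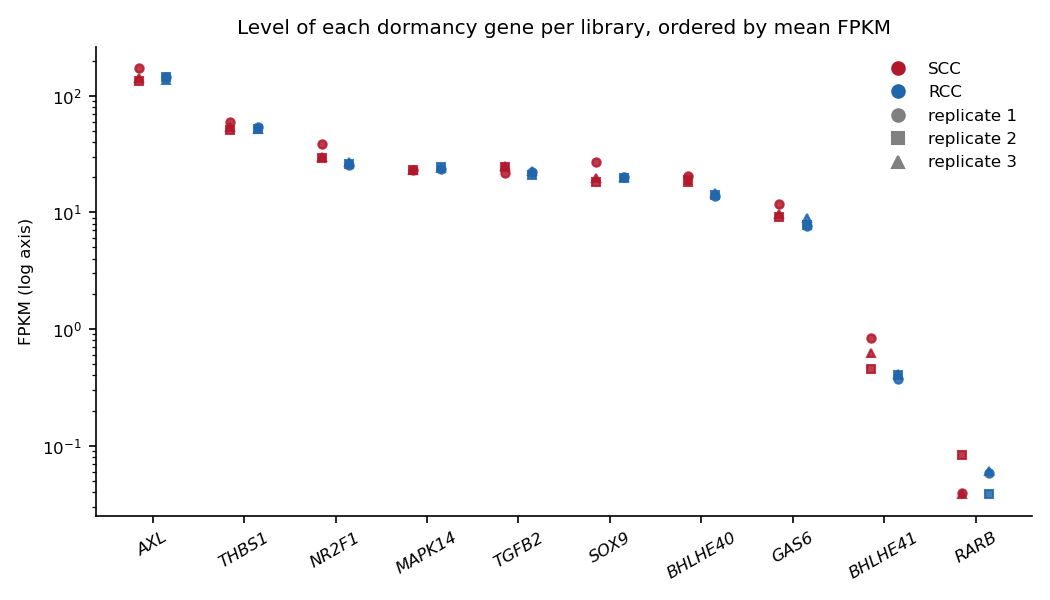
Each point is 1 library's deposited FPKM value on a log axis, red for SCC and blue for RCC, with the symbol giving the replicate, and genes run from the highest to the lowest mean. AXL lies above all others and RARB, at 0.038 to 0.083 FPKM, below all others.

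BHLHE40 encodes a basic helix-loop-helix repressor that binds E-box DNA and also acts in the circadian clock. The gene (ENSG00000134107, chromosome 3, 4979116 to 4985323, plus strand, GRCh38) was at 80.5, 72.8 and 69.6 CPM (each count divided by the TMM-scaled library total in units of 1e6) in SCC replicates 1 to 3 and at 53.8, 54.1 and 56.3 CPM in RCC replicates 1 to 3. Every SCC library lay above every RCC library, a separation found in this direction for 14.4% of all tested genes. On the log2 scale SCC exceeded RCC by 0.44 (standard error 0.078, 95% interval 0.27 to 0.61, edgeR adjusted p = 0.015). Leaving out SCC replicate 1 gave 0.38 (adjusted p = 1.5e-04), and the GC offset gave 0.41 (8.5e-04). The call ended in each fit that left out an RCC library, with an adjusted p of 0.128 without RCC replicate 1, 0.107 without replicate 2 and 0.0897 without replicate 3, while the log2 fold change stayed between 0.42 and 0.45. It also ended in limma on log2(FPKM + 1) with no filter (0.127).

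BHLHE41 is the close relative of BHLHE40 that TGF-beta 2 signalling is known to raise in dormant cells. The gene (ENSG00000123095, chromosome 12, 26120026 to 26125127, minus strand) was thinly covered, at 90, 35 and 52 counts in the SCC libraries and 34, 33 and 29 in the RCC libraries. On the CPM scale these were 3.34, 1.79 and 2.47 in SCC against 1.48, 1.58 and 1.62 in RCC. The groups did not overlap, but SCC replicate 1 was far above SCC replicate 2, and the lowest SCC library was close to the RCC range. Its fold change, 0.72 on the log2 scale, had the widest interval of the 9 genes (0.12 to 1.31) and was not called (edgeR adjusted p = 0.191). Without SCC replicate 1 it was 0.45 (-0.19 to 1.10, adjusted p = 0.465), and the GC offset gave 0.72 (0.145). SSPN, which overlaps BHLHE41 on the opposite strand with 162 shared exon bases, averaged 1.57 ± 0.14 CPM in SCC against 0.93 ± 0.19 in RCC (mean ± SD, n = 3; not called, adjusted p = 0.204). The use of strand in counting was not given in the sources used here, so reads of the 2 genes could mix. On the FPKM scale BHLHE40 exceeded BHLHE41 by 31.9 ± 8.88-fold in SCC and 36.2 ± 1.14-fold in RCC (exact permutation p = 0.4, two-sided, n = 3).

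The E-box that BHLHE proteins bind, CACGTG, is a palindrome and so reads alike on both strands. RefSeq promoter windows on GRCh38.p14, from 250 bases before to 50 after a transcript start, were matched for 9 of the 10 genes, with 14 windows in all. Of the 9 genes 3 held this E-box (BHLHE40, BHLHE41 and TGFB2), in 3 of the 14 windows, against 7.26% of all 35116 windows. The stretches below show the E-box in capitals, because 2 of these 3 genes are the repressors themselves and the other is the ligand placed upstream of BHLHE41.
BHLHE40: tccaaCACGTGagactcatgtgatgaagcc
BHLHE41: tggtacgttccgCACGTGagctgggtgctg
TGFB2: gttgaaggcagaCACGTGgttcagagagaa
They lie at chr3:4979187-4979216 (plus strand), chr12:26125068-26125097 (minus strand) and chr1:218345275-218345304 (plus strand), with the E-box 245, 48 and 49 bases before the start of the RefSeq transcript. For all 3 genes that start differs from the first base of the GENCODE gene given here, and the BHLHE40 and BHLHE41 stretches lie inside the GENCODE gene. The AP-1 site TGACTCA, searched on both strands because the series title names AP-1, occurred in 0 of the 14 windows and in 4.95% of all windows. The nuclear receptor motif AGGTCA, also on both strands, occurred in 1 window, of RARB, and in 13.8% of all windows. A match describes only the letters in these windows.

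The list of clock partners of BHLHE40 and BHLHE41, which also held related helix-loop-helix factors, gave the most calls of any partner list. HES1 among its calls was listed as such a factor and not as a clock gene. The TGF-beta and cell cycle arrest lists gave 2 calls each. All partner lists were chosen with earlier results of these data known. Of 15 listed genes 14 were tested, and edgeR called 3 higher and 0 lower, against 2.07% called among all tested genes. By unadjusted p under 0.05, 6 were higher and 1 lower, against 11.4% higher and 1313 of 15881 lower over all tested genes. HES1, a Notch-regulated repressor listed as a related helix-loop-helix factor, averaged 105 ± 14.3 CPM in SCC against 25.6 ± 2.44 in RCC (log2 fold change 2.04, edgeR adjusted p = 2.3e-06). NR1D1, the clock repressor REV-ERB alpha, was at 36.1, 29.6 and 23.0 CPM against 8.13, 8.22 and 6.82 (log2 fold change 1.93, adjusted p = 1.1e-04), and it overlaps THRA on the opposite strand. PER1, a clock gene with an E-box in its promoter window, was at 37.9, 30.8 and 27.6 CPM against 12.2, 12.7 and 14.3 (log2 fold change 1.30, adjusted p = 3.5e-04). All 3 had groups far apart, and their calls held in every fit without 1 library. The PER1 window reads as follows, with the E-box 173 bases before the start.
PER1: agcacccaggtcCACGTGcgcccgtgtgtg
It lies at chr17:8152560-8152589 on the minus strand, also inside the GENCODE gene. The E-box stood in 3 of the 12 matched genes of this list (CIART, NR1D2 and PER1), in 3 of their 16 windows, against 7.26% of all windows. CIART was not tested and NR1D2 was not called, and the windows of HES1 and NR1D1 held no E-box.

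By Pearson r of log2 CPM over the 6 libraries, the 5 genes most like BHLHE40 were PER1 (0.997), PHPT1 (0.997), MAFF (0.996), SNAI1 (0.996) and SERTAD1 (0.995). This is a description over 6 libraries that share 1 group difference, and 777 of the 15880 other tested genes had an r over 0.9. SNAI1, a repressor of epithelial genes, averaged 15.9 ± 2.58 CPM in SCC against 5.91 ± 0.47 in RCC (mean ± SD, n = 3), and MAFF, a small MAF factor overlapping PLA2G6 on the opposite strand, at 100.5 ± 14.95 and 50.03 ± 1.22. SERTAD1, a cell cycle cofactor, was at 27.8 ± 4.35 and 17.3 ± 0.70 CPM. PHPT1, a histidine phosphatase gene with overlapping genes on its own strand, was at 92.2 ± 3.01 and 81.5 ± 1.46 CPM and was not called (edgeR adjusted p = 0.184). Its log2 fold change of 0.18 became -0.063 under the GC offset. SERTAD1 (edgeR adjusted p = 0.013 with all libraries) was no longer called without RCC replicate 1 (0.102), 2 (0.0851) or 3 (0.0703).

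NR2F1 is the nuclear receptor at the head of the published dormancy programme. The gene (ENSG00000175745, chromosome 5, 93583224 to 93594615, plus strand) was at 168, 126 and 128 CPM in SCC and 112, 112 and 118 in RCC. The groups did not overlap, yet SCC replicates 2 and 3 lay much nearer to the RCC libraries than to SCC replicate 1. Its log2 fold change of 0.31 (standard error 0.10, 95% interval 0.080 to 0.54) was not called (edgeR adjusted p = 0.152). It came to 0.16 both when SCC replicate 1 was left out (adjusted p = 0.0535) and under the GC offset (0.113), and the GC content of NR2F1, 59.0%, is the second highest of the 10. In a fit over all genes that had any count it was called (0.32, adjusted p = 0.0096). Its antisense neighbour NR2F1-AS1, with 158 shared exon bases, averaged 30.4 ± 1.33 CPM in SCC against 32.4 ± 1.99 in RCC (mean ± SD, n = 3; log2 fold change -0.093, adjusted p = 0.557).

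SOX9 and RARB are the factors that NR2F1 is known to raise in dormant cells. SOX9 (ENSG00000125398, chromosome 17, 72121020 to 72126420, plus strand) was at 108, 71.9 and 78.0 CPM in SCC and 80.0, 76.5 and 79.5 in RCC. Only SCC replicate 1 stood above the RCC libraries, and the groups overlapped. Its log2 fold change was 0.13 (-0.15 to 0.42, edgeR adjusted p = 0.579) and became -0.068 without SCC replicate 1, against 0.12 under the GC offset. RARB (ENSG00000077092, chromosome 3, 25174332 to 25597932, plus strand) had 4, 6 and 3 counts in the SCC libraries and 5, 3 and 4 in the RCC libraries, or 0.20 ± 0.093 and 0.19 ± 0.045 CPM (SD, n = 3). The exact permutation p was 0.9 (two-sided, n = 3), and 13 against 12 counts in all cannot show a difference of moderate size.

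Among 22 retinoid and orphan nuclear receptor partners, 14 were tested, 0 were called by edgeR in either direction, and an unadjusted p under 0.05 was reached by 3 higher and 1 lower. The smallest p belonged to RXRB, a retinoid X receptor that pairs with RAR proteins, at 71.7 ± 4.57 CPM in SCC against 62.5 ± 1.93 in RCC (mean ± SD, n = 3; log2 fold change 0.20, adjusted p = 0.188); it overlaps SLC39A7 on the opposite strand. Of 12 other SOX genes 7 were tested and 1 was called higher, 0 lower (3 and 0 at an unadjusted p under 0.05). Over all tested genes 2.07% were called and 11.4% were higher at that unadjusted p. SOX4, a factor of progenitor and mesenchymal states, was at 41.6, 32.5 and 33.8 CPM in SCC and 26.6, 24.1 and 24.2 in RCC (log2 fold change 0.53, edgeR adjusted p = 0.034). All SCC libraries lay above the RCC libraries. The SOX4 call ended without SCC replicate 3 (0.0625) and without RCC replicate 1 (0.113), 2 (0.161) or 3 (0.167).

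**Figure D3:**
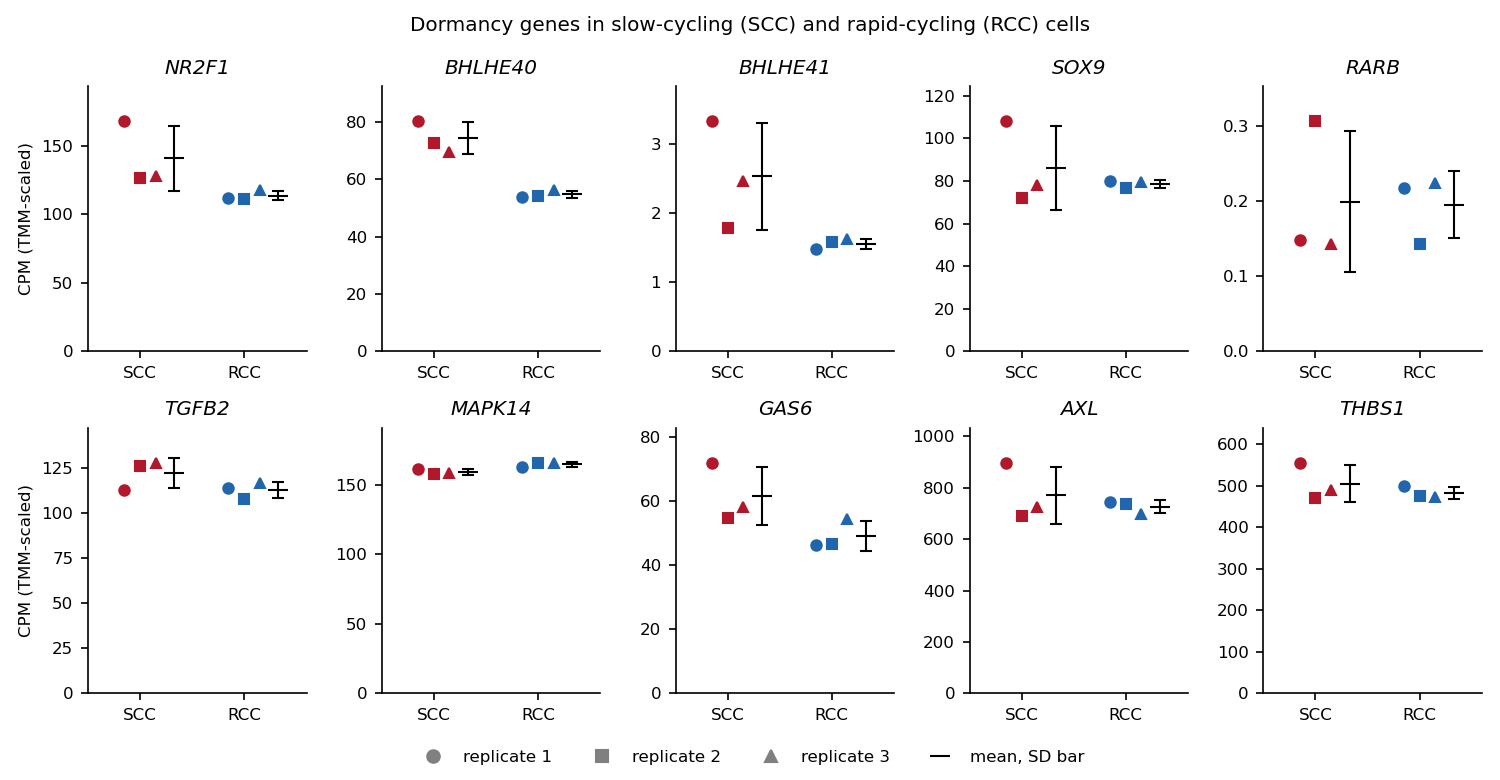
Each panel is 1 gene, with CPM from 0 on the vertical axis, SCC in red and RCC in blue, symbols for the replicates, and a black mean with an SD bar beside each group of 3 libraries. BHLHE40 is clear of the RCC range in every SCC library, whereas in SOX9, AXL and THBS1 only the circle of SCC replicate 1 stands high.

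TGFB2 encodes the ligand that is known for inducing dormancy through p38. The gene (ENSG00000092969, chromosome 1, 218346235 to 218444619, plus strand) was at 113, 127 and 128 CPM in SCC and 114, 108 and 117 in RCC. SCC replicate 1 lay inside the RCC range and the other 2 SCC libraries above it. The log2 fold change of 0.12 (-0.043 to 0.28) was not called (edgeR adjusted p = 0.381). Without SCC replicate 1 it was 0.17 (0.069 to 0.28) and was called (adjusted p = 0.0408), in a fit that called 6.03% of genes. With the GC offset it was 0.25 (0.13 to 0.37, adjusted p = 0.017), in a fit that called 4.66%.

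Of 25 other TGF-beta family ligands, receptors and SMADs, 23 were tested, 2 were called higher and 0 lower (edgeR). At an unadjusted p under 0.05, 8 were higher and 0 lower, and the median log2 fold change was 0.16. Over all tested genes 2.07% were called, 11.4% were higher at that unadjusted p, and the median was 0.0029. SMAD7, an inhibitor that TGF-beta itself induces, was at 31.2, 23.3 and 24.4 CPM in SCC and 11.9, 13.4 and 14.0 in RCC. This was a log2 fold change of 1.01 (standard error 0.13, edgeR adjusted p = 0.0017). GDF15, a stress-induced member of the family, was at 16.3, 12.0 and 11.9 CPM against 7.96, 8.51 and 7.16 (log2 fold change 0.77, adjusted p = 0.027). Neither gene's groups overlapped. The GDF15 call ended without RCC replicate 1 (0.130), 2 (0.0851) or 3 (0.146).

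MAPK14 encodes p38 alpha, whose activity is set by phosphorylation rather than by its mRNA. The gene (ENSG00000112062, chromosome 6, 36027677 to 36111236, plus strand) was at 162, 158 and 158 CPM in SCC and 163, 166 and 166 in RCC. These narrow ranges did not overlap, with SCC lower, but the log2 fold change was -0.050 with a 95% interval of -0.18 to 0.083 and was not called (edgeR adjusted p = 0.659). The interval leaves room for folds from 0.88 to 1.06. Leaving out SCC replicate 1 gave -0.061, and the GC offset gave 0.0023. Non-overlapping groups in either direction were found for 5 of the 9 genes (BHLHE40, BHLHE41, NR2F1, GAS6 and, lower, MAPK14) and for 27.8% of all tested genes.

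All 24 listed genes of the p38 and ERK pathways were tested, and 1 was called higher and 0 lower (edgeR). By unadjusted p under 0.05, 4 were higher and 1 lower, and the median log2 fold change was 0.090. Over all tested genes 2.07% were called and 11.4% were higher at that unadjusted p. The called gene of this list was DUSP1, an immediate early phosphatase that removes the activating phosphates from p38 and related kinases. It was at 189, 154 and 160 CPM in SCC and 84.7, 83.5 and 88.9 in RCC (log2 fold change 0.97, edgeR adjusted p = 1.5e-04). The lowest SCC library was well above the highest RCC library, and the call held in every fit without 1 library.

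GAS6 encodes a vitamin K-dependent ligand of AXL, TYRO3 and MERTK. The gene (ENSG00000183087, chromosome 13, 113820549 to 113864067, minus strand) was at 72.0, 54.6 and 58.1 CPM in SCC and 46.3, 46.5 and 54.4 in RCC. The groups touched without overlapping, since the highest RCC library, replicate 3, was just under the lowest SCC library. The log2 fold change of 0.33 (standard error 0.11, 0.086 to 0.58) was not called (edgeR adjusted p = 0.151). Leaving out SCC replicate 1 gave 0.20 (adjusted p = 0.102) and the GC offset gave 0.13 (0.247); GAS6 has the highest GC content of the 10, 61.8%. The fit over all genes that had any count called it (0.34, adjusted p = 0.017).

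A gene annotated as antisense at this locus had lower counts in SCC. Since the use of strand in counting is not given, its reads and those of GAS6 cannot be told apart over the shared bases. GAS6-AS1 (ENSG00000233695, chromosome 13, 113815630 to 113845744, plus strand) shares 421 exon bases with GAS6 and had 18, 11 and 13 counts in SCC against 42, 27 and 36 in RCC. These were 0.67, 0.56 and 0.62 CPM against 1.83, 1.29 and 2.01 CPM, with no overlap. The log2 fold change was -1.45 (standard error 0.32) and was called (edgeR adjusted p = 0.0447), close to the threshold. The call ended without SCC replicate 2 (0.0517) or 3 (0.117) and without RCC replicate 1 (0.198), 2 (0.0803) or 3 (0.175), with log2 fold changes of -1.63 to -1.34 across the fits without 1 library. It also ended when counts were thinned to the smallest library (-1.25, adjusted p = 0.0889) and in limma on log2(FPKM + 1) with no filter (-0.19, 0.417). The 10 dormancy genes overlap 16 annotated genes in all. Of these 10 were tested, 0 were called higher and this 1 lower, against 1.69% and 0.378% of all tested genes. The 16 were examined because of the overlap, after the data had been seen.

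AXL is the receptor of GAS6. The gene (ENSG00000167601, chromosome 19, 41219203 to 41261766, plus strand) was at 898, 688 and 726 CPM in SCC and 745, 735 and 699 in RCC. Only SCC replicate 1 was above the RCC range, and the lowest library of all was SCC replicate 2. On the log2 scale the difference was 0.085 (-0.12 to 0.29, edgeR adjusted p = 0.622), and -0.038 (-0.13 to 0.055) without SCC replicate 1, against 0.027 under the GC offset. AC011510.1, annotated as antisense within AXL with 67 shared exon bases, had 15 to 52 counts per library against 12495 to 24208 for AXL, and its value depends on how strand was treated in counting. It was at 1.19, 0.77 and 0.95 CPM in SCC and 1.87, 2.49 and 2.18 in RCC. Its groups did not overlap, and its log2 fold change of -1.15 (standard error 0.28) was not called (adjusted p = 0.0672); 7 of 19 alternative fits called it. Over all tested genes edgeR called 2.07%, and 11.4% were higher by unadjusted p under 0.05. Of 12 other genes of the TAM receptor pathway all 12 were tested and 0 were called by edgeR. By that unadjusted p, 1 of the 12 was higher and 0 were lower. The smallest p there was that of PROS1, the other vitamin K-dependent TAM ligand, at 39.4 ± 5.11 CPM in SCC against 31.97 ± 3.46 in RCC (mean ± SD, n = 3; log2 fold change 0.30, adjusted p = 0.197). PROS1 was called in 3 of 19 alternative fits: without SCC replicate 1 (0.40, adjusted p = 0.0036), with the GC offset (0.40, 0.0099) and with the offset and replicate block (0.41, 0.0069).

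THBS1 encodes a secreted matrix glycoprotein. The gene (ENSG00000137801, chromosome 15, 39581079 to 39599466, plus strand) was at 556, 471 and 491 CPM in SCC and 500, 475 and 474 in RCC. The groups overlapped, with SCC replicate 1 highest and SCC replicate 2 lowest of all 6. The difference on the log2 scale was 0.067 (-0.095 to 0.23, edgeR adjusted p = 0.626) and -0.0061 without SCC replicate 1, against 0.13 under the GC offset. Of 16 related thrombospondins, receptors and partners, 12 were tested, 1 was called higher and 0 lower (3 and 0 at an unadjusted p under 0.05). Over all tested genes 2.07% were called and 11.4% were higher at that unadjusted p. LRP1, an endocytic receptor that clears thrombospondin, was at 96.1, 69.4 and 73.6 CPM in SCC and 50.8, 46.4 and 51.6 in RCC (log2 fold change 0.69, edgeR adjusted p = 0.012). LRP1 overlaps STAT6 on the opposite strand, and its call ended without RCC replicate 1 (0.0823), 2 (0.0851) or 3 (0.0710).

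**Figure D4:**
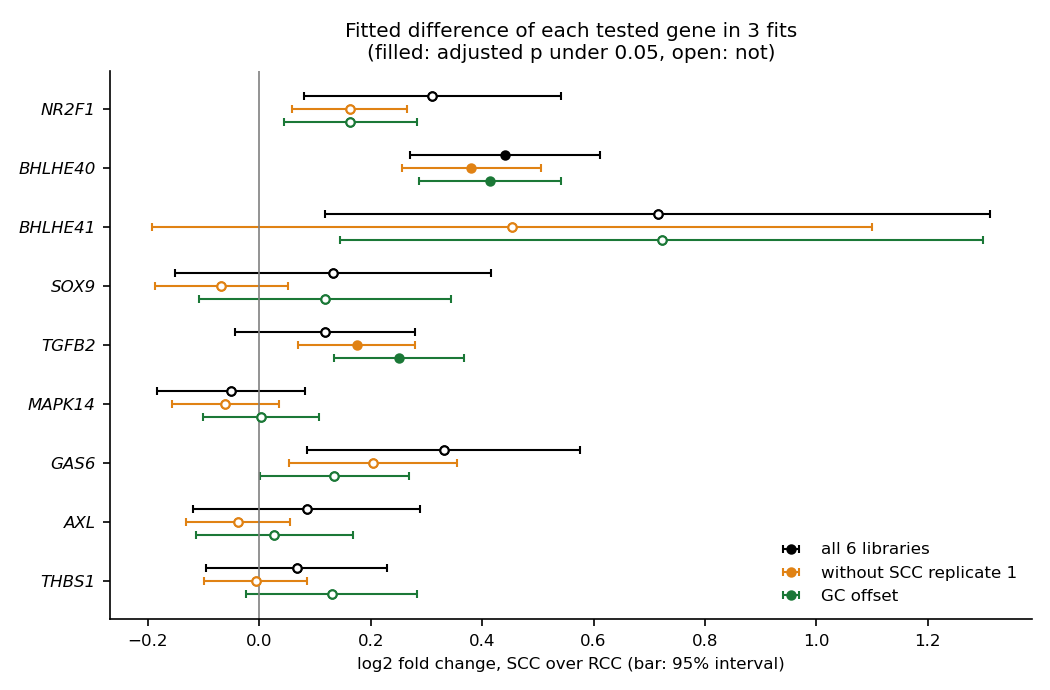
For each of the 9 tested genes the horizontal axis gives the log2 fold change of SCC over RCC with its 95% interval, in black from all 6 libraries, in orange without SCC replicate 1 and in green with the GC offset; filled points have an adjusted p under 0.05. BHLHE40 is filled in all 3 fits, TGFB2 in the orange and green ones, and SOX9, AXL and THBS1 fall below 0 in orange.

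Across the 9 tested genes, the median log2 fold change was 0.13 with all libraries, 0.16 when SCC replicate 1 was left out and 0.13 under the GC offset, and 8, 5 and 9 genes were above 0. The number called higher was 1, 2 and 2. The 2 called in each of the last 2 fits were BHLHE40 and TGFB2. Of all tested genes, leaving out SCC replicate 1 called 3.93% higher and 2.1% lower, and the GC offset called 3.48% higher and 1.18% lower.

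The list of cell cycle arrest readouts gave 2 calls. It holds inhibitors of cyclin-dependent kinases, RB family genes, cyclins and the proliferation gene MKI67, which need not move alike. Of 14 listed genes 12 were tested, 2 were called higher and 0 lower (edgeR), against 2.07% called among all tested genes. An unadjusted p under 0.05 was reached by 3 higher and 1 lower, against 11.4% higher and 1313 of 15881 lower over all tested genes. The median log2 fold change was 0.021, with 6 of the 12 above 0. CDKN1A, an inhibitor of cyclin-dependent kinases, was at 48.2, 46.3 and 48.4 CPM in SCC and 29.2, 28.8 and 30.8 in RCC, a log2 fold change of 0.69. CDKN2D, an inhibitor of CDK4 and CDK6, was at 41.2, 35.5 and 35.1 CPM against 25.3, 29.5 and 25.1 (log2 fold change 0.49, edgeR adjusted p = 0.035). The groups of both genes were apart. MKI67, the cyclins and RB1 were not called. Their log2 fold changes were 0.12 for MKI67, 0.078 for CCND1, -0.18 for CCNE1, -0.11 for CCNB1 and -0.20 for RB1. The CDKN2D call ended with the GC offset (0.30, adjusted p = 0.0595), without SCC replicate 3 (0.0720) and without RCC replicate 1 (0.198), 2 (0.0667) or 3 (0.183).

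All partner lists together held 140 genes, of which 118 were tested, 10 called higher and 0 lower (edgeR). That is 8.47% called, against 2.07% of all tested genes, with a median log2 fold change of 0.12. By unadjusted p under 0.05, 31 were higher and 4 lower, against 11.4% higher and 1313 of 15881 lower over all tested genes. The lists were chosen with earlier results of these data known, so these shares describe the lists only and cannot show an excess. DESeq2 called 11 of the partner genes higher and 0 lower, against 480 and 170 of all 15881 genes. Without RCC replicate 1, 2 or 3 the number of partner genes called higher was 6 in each case. SOX4, GDF15, LRP1 and CDKN2D were not called by limma on log2(FPKM + 1), with adjusted p of 0.0971, 0.0698, 0.0978 and 0.0806.

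**Figure D5:**
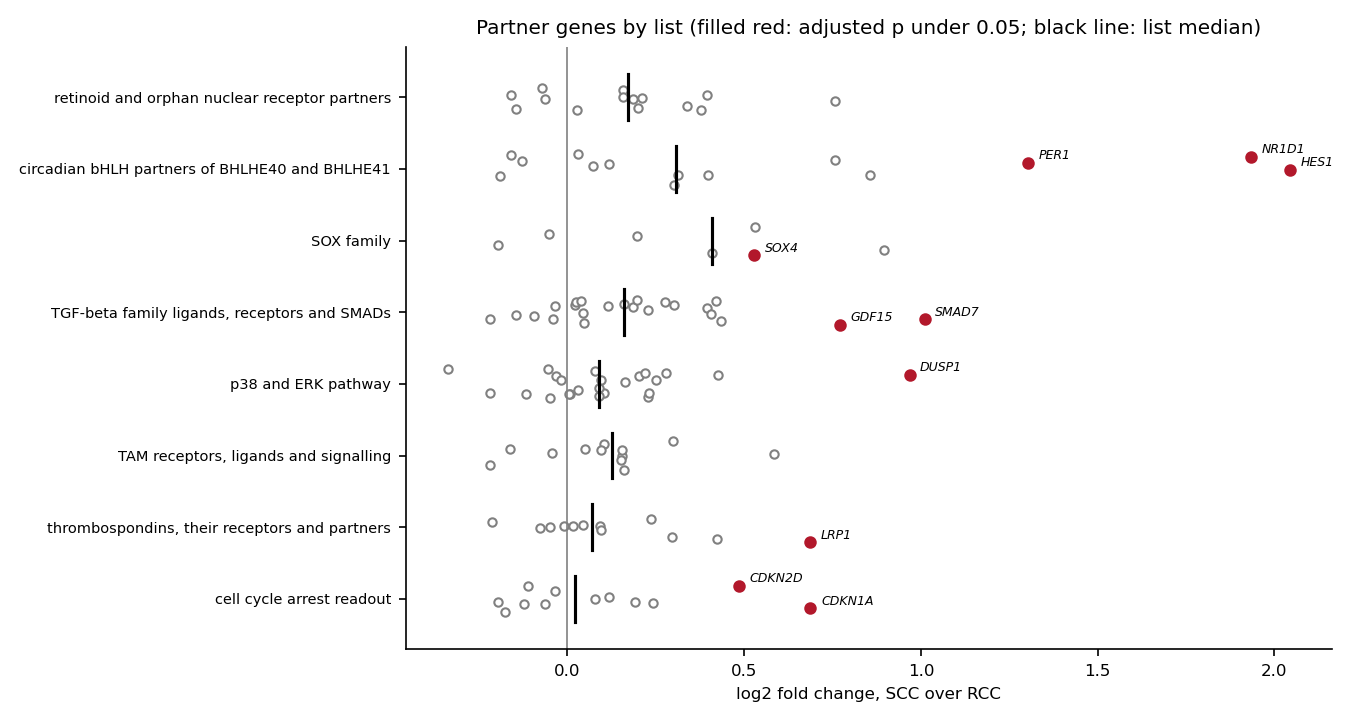
Each point is 1 tested partner gene, placed by its log2 fold change of SCC over RCC and its list, with called genes in red and named, and a black line at the list median. The 3 points farthest to the right, HES1 (2.04), NR1D1 (1.93) and PER1 (1.30), belong to the list of clock partners of BHLHE40 and BHLHE41. HES1 stands in that list as a related helix-loop-helix factor.

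The line's identity was checked on markers. VIM, CD44, KRT18, CAV1 and S100A4 together summed to 2074 to 2243 CPM in SCC and 2106 to 2225 in RCC. Leukocyte markers (PTPRC, CD3E, CD79A, CD14 and LYZ) summed to 0.61 to 3.08 CPM in SCC and 0.43 to 1.57 in RCC, with the highest sum in SCC replicate 1, and endothelial markers (PECAM1, CDH5 and VWF) to 3.32 to 3.73 and 3.15 to 3.92. Most of the endothelial sum was PECAM1, with means of 2.99 CPM in SCC and 2.73 in RCC. Fibroblast markers (DCN, LUM and PDGFRB) summed to 11.1 to 12.3 and 10.0 to 11.4 CPM, nearly all of it PDGFRB. The 5 markers that should be low in this line, ESR1, PGR, ERBB2, CDH1 and EPCAM, summed to 75.5 to 112 CPM in SCC and 79.8 to 81.1 in RCC, nearly all of it ERBB2. No marker was at 0 in all libraries. The part of these other markers in the results was not tested.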

How the data were processed

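RNA-seq libraries, 6 in all, were made from MDA-MB-231 cells, 3 SCC and 3 RCC, and grouped by sample title. Per the submitters' processing notes, HISAT2 2.0.5 and featureCounts 1.5.0-p3 were used; their settings, the build and the use of strand are not given in the sources used here. The authors deposited a table of whole-number read counts and a table of FPKM. All 58735 rows had the position of their gene ID in GENCODE 29 (GRCh38), and 27 altered names were restored from it. Counts ranged from 17655855 to 27831824 per library.

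Counts were filtered with filterByExpr (minimum count 10), scaled by TMM and fitted on group alone with edgeR 4.0.16 in R 4.3.3 (glmQLFit, two-sided F test, Benjamini-Hochberg over 15881 genes). Standard errors were derived as the log2 difference over the root of the F statistic, and 95% intervals are unadjusted. On data simulated for this comparison (15881 genes), 84% of genes changed 1.5-fold and 100% of those changed 2-fold were recovered, and 6.3% of calls were false. Genes with CPM as low as that of BHLHE41 were not changed in it, and the GC trend of SCC replicate 1 was not simulated. These shares therefore do not cover either case, nor folds under 1.5. For ratios and RARB an exact permutation test (two-sided) was used. CPM use TMM-scaled totals. GC content is that of the longest GENCODE 29 transcript (15874 tested genes), fitted as a lowess offset per library (span 0.3). Alternatives used DESeq2 1.42.0, limma 3.58.1 on log2(FPKM + 1) and log2(FPKM + 0.1), other scalings and filters, thinning, a length offset, a replicate block, and leaving out each library. Promoters are from RefSeq (GRCh38.p14).

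The 10 genes, the partner lists and the tests were chosen with earlier results of these data known. Genes named were the 10, every called gene of a list (6 at most) and the list's gene with the smallest p. The 5 genes most correlated with the dormancy gene of smallest p were named too. The antisense genes, NR2F1-AS1, SSPN, MKI67, the cyclins and RB1 were added after their values were seen.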

Additional observations from a re-analysis of the deposited data

How the results depend on the processing

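In all 19 alternatives were run; a GC offset from a genome was not run, and transcript GC content was used in its place, chosen after seeing the data. Over all genes, against 268 higher and 60 lower, testing every gene with at least 1 count called 995 and 315, DESeq2 480 and 170, log2(FPKM + 1) 130 and 36, log2(FPKM + 0.1) 117 and 34, log2(FPKM + 1) without a filter 48 and 1, the GC offset 552 and 188, and the GC offset with the replicate block 629 and 293. Fits without 1 library called 99 to 642 higher and 8 to 343 lower. The share higher among called genes was 81.7% in the fit reported above, 74.6% with the GC offset and 68.2% with the offset and block.

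Of the dormancy genes, 3 were called with every gene of at least 1 count, 0 with log2(FPKM + 1) without a filter, 2 with the GC offset, 2 with the offset and block, and 0 to 2 without 1 library. Added calls were NR2F1 (log2 fold change 0.32) and GAS6 (0.34) in the first of these, and TGFB2 with the GC offset (0.25), with the block as well (0.25) and without SCC replicate 1 (0.17). TGFB2 ranged from 0.076 to 0.17 without 1 library. BHLHE40 lost its call without a filter on log2(FPKM + 1) (0.41), and was 0.38 to 0.48 without 1 library. Signs changed for SOX9 (-0.068 to 0.23), AXL (-0.038 to 0.15) and THBS1 (-0.0061 to 0.10) without 1 library, in each case without SCC replicate 1, and for MAPK14 with the GC offset (0.0023) and with the offset and block (0.0015). PHPT1 was -0.063 and -0.068 in these last 2 fits. The level order was the same with TMM-scaled totals, a unit that differs from FPKM only in the library total.

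Partner genes called higher numbered 21 with every gene of at least 1 count, 6 with either filtered log2(FPKM) setting, 4 with no filter, 16 with the GC offset and block, and 6 to 15 without 1 library, against 10. Called lower were 1 with the GC offset, 1 with the offset and block, and 0 to 2 without 1 library, against 0. For none of these shifts was the cause tested.

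The libraries were treated as unpaired because the labels name no block. Deviations of same-numbered replicates from their group means had correlations of -0.0091, 0.025 and -0.079. With 3 libraries per group these cannot exclude pairing. A replicate block gave 350 genes higher and 106 lower over all genes, against 268 and 60 without it. In the block fit BHLHE40 kept its call (log2 fold change 0.44, edgeR adjusted p = 0.017), and no other dormancy gene was called. At this depth RARB (3 to 6 counts per library) and BHLHE41 (29 to 90) could show only large differences.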
